A study of Rattus norvegicus with 9 samples.

Results

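Tubular injury and failed-repair markers were followed across 9 rat kidney libraries by RNA sequencing. The set has 6 genes out of the 22637 Ensembl identifiers in the count table, fixed as a list of identifiers, with no threshold on measured values. The list was nevertheless chosen with earlier results of these data known, so shares over all genes stand beside it as description. The genes are Lcn2 (ENSRNOG00000013973), Clu (ENSRNOG00000016460), Spp1 (ENSRNOG00000043451), Vcam1 (ENSRNOG00000014333), Cd44 (ENSRNOG00000006094) and Cdkn1a (ENSRNOG00000000521). All libraries came from whole kidney of the SD strain, as the labels write it, with 3 libraries in each of 3 groups. Control kidneys carry no further label. CKD kidneys come from a rat model of chronic kidney disease. MSC kidneys are labelled as treated with mesenchymal stem cells, multipotent stromal cells that, according to the series title, were infused into the parenchyma of diseased kidneys under ultrasound guidance. The means of inducing disease, the origin and number of the infused cells, the age of the rats, any sham procedure in controls and the interval before tissue collection are not stated in the labels. Nor do the labels tie each library to its own animal. The p-values therefore reflect the variation among these libraries, some of which may be technical.

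Proximal tubule cells injured by ischemia, toxins or obstruction lose transport functions and switch on a set of secreted, surface and cell cycle genes. In adaptive repair this program is switched off again, whereas cells in failed repair keep it on and stay dedifferentiated and proinflammatory. Lcn2 encodes the siderophore-binding lipocalin NGAL, a urinary marker of kidney injury. Clu encodes clusterin, an extracellular chaperone. Spp1 encodes osteopontin, a secreted ligand of integrins and of CD44. Vcam1 encodes an adhesion molecule of activated endothelium that binds leukocyte integrins and also marks tubule cells in failed repair. Cd44 encodes the hyaluronan receptor, and Cdkn1a encodes p21, an inhibitor of cyclin-dependent kinases that p53 induces.

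The sequence around the start sites is shown for members with a match to a sought motif. Whether it has a part in their levels was not tested. Windows of 300 bases, 250 before and 50 after a RefSeq transcript start, were found by symbol in the RefSeq promoter table of build GRCr8 for 5 of the 6 genes, all but Clu. That build differs from Rnor_6.0, on which the counts rest. Capitals mark motif matches: the NF-kappaB consensus in Vcam1 and Lcn2, the letters TATAAA in Vcam1 (overlapping their reverse-strand match) and a p53 half-site in Cdkn1a. Spp1 also holds TATAAA. The Cd44 window held no match and is not shown. The Vcam1 window is chr2:206742734-206743033, the Lcn2 window chr3:36081731-36082030 and the Spp1 window chr14:5619755-5620054, all on the minus strand, and the Cdkn1a window chr20:7150682-7150981 on the plus strand.
Vcam1: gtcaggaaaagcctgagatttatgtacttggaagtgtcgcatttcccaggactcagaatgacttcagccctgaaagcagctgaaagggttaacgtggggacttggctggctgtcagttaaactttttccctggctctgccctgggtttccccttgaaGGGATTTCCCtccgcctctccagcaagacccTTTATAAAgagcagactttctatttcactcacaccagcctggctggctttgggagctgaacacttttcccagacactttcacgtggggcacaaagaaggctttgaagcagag
Lcn2: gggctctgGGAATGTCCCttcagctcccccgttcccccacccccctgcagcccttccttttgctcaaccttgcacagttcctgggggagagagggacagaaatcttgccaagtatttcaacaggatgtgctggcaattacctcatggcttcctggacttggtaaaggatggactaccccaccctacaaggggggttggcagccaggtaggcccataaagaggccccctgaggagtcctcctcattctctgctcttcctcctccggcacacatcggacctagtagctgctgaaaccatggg
Spp1: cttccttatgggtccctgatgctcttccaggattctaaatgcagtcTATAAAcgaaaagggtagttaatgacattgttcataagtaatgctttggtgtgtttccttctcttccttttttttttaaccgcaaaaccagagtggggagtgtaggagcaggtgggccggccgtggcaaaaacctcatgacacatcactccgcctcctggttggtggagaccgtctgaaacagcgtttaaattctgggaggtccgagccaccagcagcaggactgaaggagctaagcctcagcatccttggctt
Cdkn1a: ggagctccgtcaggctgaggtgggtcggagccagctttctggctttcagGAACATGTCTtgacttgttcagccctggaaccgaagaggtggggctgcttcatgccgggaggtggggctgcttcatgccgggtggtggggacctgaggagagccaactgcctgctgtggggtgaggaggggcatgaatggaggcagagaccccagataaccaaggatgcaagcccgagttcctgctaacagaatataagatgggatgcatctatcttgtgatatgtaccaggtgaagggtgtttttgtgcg

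Both strands were searched for 4 motifs, chosen with earlier results of these data known. The NF-kappaB consensus occurred in 2 of the 5 windows, at position 158 of the Vcam1 window and position 9 of the Lcn2 window, and in 7.51% of all 33469 windows of this length. TATAAA occurred in the Vcam1 and Spp1 windows, at -60 and -204 from the transcript start, and in 14.2% of all windows. A p53 half-site occurred at position 50 of the Cdkn1a window and in 7.98% of all windows. The AP-1 motif TGANTCA, present in 7.33% of all windows, matched none of the 5. A match describes the letters of the reference and not binding in these kidneys.

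Library totals ran from 47633344 to 58546847 counts and did not overlap between groups, MSC libraries being the smallest and CKD libraries the largest. For 6 of 6 markers the lowest raw count among MSC libraries was nevertheless above the highest among controls, as in 22.9% of all tested genes. CKD replicate 2 stood apart from its group in several markers, so results that rest on it are also given without it. It was the highest CKD library for 6 of 6 markers and for 37.6% of all genes. For these markers, leaving it out lowers the CKD against control fold and raises the MSC against CKD fold by construction. Levels are given as CPM, that is counts brought to the same sequencing depth, with TMM factors, which correct for differences in library composition. All 6 genes passed the filter on low counts, which kept 17584 genes. In bulk kidney RNA a change in the number of cells of a type and a change in RNA per cell cannot be told apart. The count table holds identifiers without symbols, and 0 of 22637 could be matched in the RefSeq gene table, so tubule, endothelial and leukocyte markers were not analysed here. The part of other cell types in the results was not tested.

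Among the secreted markers, the CKD libraries were far apart. Lcn2 measured 5.48, 6.26 and 2.71 CPM in control replicates 1, 2 and 3. In CKD replicates 1, 2 and 3 it measured 9.08, 81.8 and 4.55 CPM. In MSC replicates 1, 2 and 3 it measured 93.8, 79.4 and 59.9 CPM. CKD replicate 2 lay within the MSC range, while the remaining CKD libraries lay near the controls. Lcn2 rose in MSC against control kidneys, with a log2 fold of 4.01 ± 0.99 (SE, 16.1-fold, edgeR adjusted p = 0.0168), and the groups did not overlap. Its log2 fold was 2.72 ± 0.94 in CKD against control (edgeR adjusted p = 0.756) and 1.29 ± 0.88 in MSC against CKD (edgeR adjusted p = 0.307), and neither passed the threshold of 0.05. Without CKD replicate 2 the CKD against control log2 fold was 0.50 and that of MSC against CKD 3.51. The call against control was lost without control replicate 1 (edgeR adjusted p = 0.0523) and without control replicate 3 (edgeR adjusted p = 0.0617), with log2 folds of 4.11 and 3.74.

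Clu measured 113.9, 147 and 107.2 CPM in control replicates 1, 2 and 3. Its CKD values were 173.3, 1048 and 169.8 CPM in replicates 1, 2 and 3. Its MSC values were 2028, 944 and 826 CPM in the same order. Every CKD library lay above every control, CKD replicates 1 and 3 by little, and CKD replicate 2 above MSC replicates 2 and 3. Clu rose in MSC against control kidneys by a log2 fold of 3.37 ± 0.74 (SE, 10.3-fold, edgeR adjusted p = 0.0117). The CKD against control log2 fold of 1.92 ± 0.70 did not pass (edgeR adjusted p = 0.756), nor did the 1.45 ± 0.69 of MSC against CKD (edgeR adjusted p = 0.155). Without CKD replicate 2 they were 0.48 and 2.88.

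Spp1 measured 401.2, 706 and 465 CPM in control replicates 1, 2 and 3. CKD replicates 1 and 3 held 460.4 and 412.8 CPM, within the control range, and CKD replicate 2 held 6652 CPM. MSC replicates 1, 2 and 3 held 15626, 8963 and 6006 CPM. Osteopontin transcripts thus took 1.06% ± 0.562 of all counts in MSC kidneys and 0.051% ± 0.0179 in controls (SD, n = 3 each). In CKD replicate 2 that share was 0.740%, with a 95% Wilson interval of 0.738% to 0.742% that covers counting error only, against 0.0450% and 0.0392% in CKD replicates 1 and 3 (intervals 0.0445% to 0.0455% and 0.0387% to 0.0397%). Spp1 rose in MSC against control kidneys by a log2 fold of 4.28 ± 1.08 (SE, 19.5-fold, edgeR adjusted p = 0.0184), the highest of the 6 fitted folds. This call was lost without control replicate 1 (edgeR adjusted p = 0.0632) and without control replicate 3 (edgeR adjusted p = 0.0646), with log2 folds of 4.12 and 4.22. For CKD against control the log2 fold was 2.26 ± 0.99 (edgeR adjusted p = 0.756), and it was -0.26 without CKD replicate 2. The MSC against CKD fold of 2.02 ± 0.98 did not pass either (edgeR adjusted p = 0.162).

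**Figure D1:**
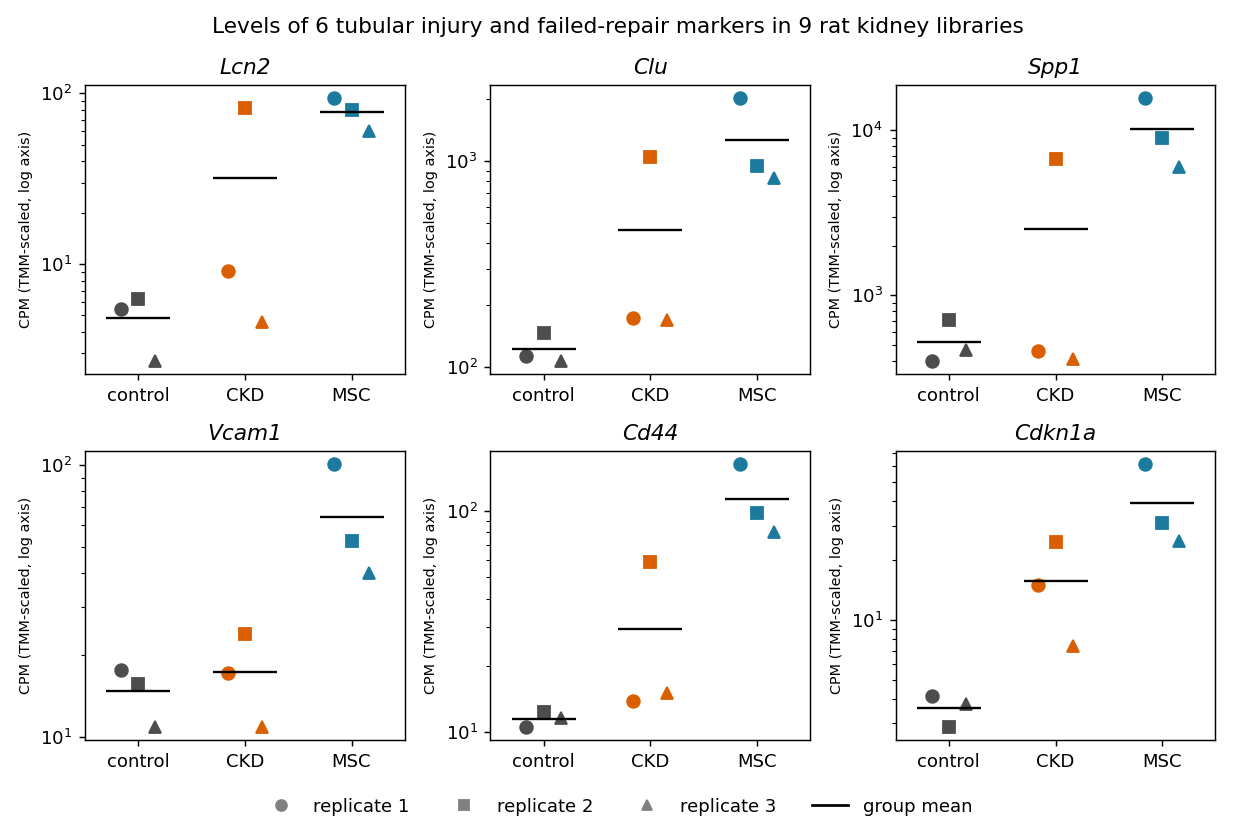
TMM-scaled CPM (log axis) of the 6 markers in each library, with replicates as symbols and group means as lines. All MSC points lie above all control points for every gene, and CKD replicate 2 (square) is the highest CKD library in every panel, at 81.8 CPM for Lcn2 against 9.08 and 4.55.

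The surface markers had MSC values above all values of both other groups, as did Cdkn1a. MSC values lay above all CKD values in 22.1% of all genes. Vcam1 measured 17.7, 15.7 and 10.9 CPM in control replicates 1, 2 and 3. Its CKD values, 17.3, 23.9 and 10.9 CPM in the same order, covered much the same range. MSC replicates 1, 2 and 3 measured 100.9, 52.7 and 40.1 CPM, all above the CKD and control libraries. Vcam1 rose in MSC against CKD kidneys by a log2 fold of 1.89 ± 0.39 (SE, 3.72-fold, edgeR adjusted p = 0.0128) and in MSC against control kidneys by 2.13 ± 0.39 (4.37-fold, edgeR adjusted p = 0.00693). Its CKD against control log2 fold was 0.24 ± 0.38 (edgeR adjusted p = 0.912), with a 95% interval from -0.62 to 1.09, and it was -0.067 without CKD replicate 2. Of the 6 markers, Vcam1 was the one called in MSC against CKD under all 16 alternatives run for that comparison.

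Cd44 had the tightest controls of the set, at 10.6, 12.3 and 11.7 CPM in replicates 1, 2 and 3. CKD replicates 1, 2 and 3 measured 13.8, 58.8 and 15.1 CPM, each above all controls. MSC replicates 1, 2 and 3 measured 162.2, 97.1 and 80.2 CPM, each above all CKD libraries. Cd44 was thus ordered control, CKD, MSC with no overlap at either step, although the first step passed no test (log2 fold 1.34 ± 0.53, edgeR adjusted p = 0.756). It rose in MSC against CKD kidneys by a log2 fold of 1.95 ± 0.53 (SE, 3.87-fold, edgeR adjusted p = 0.0314) and in MSC against control kidneys by 3.30 ± 0.57 (9.82-fold, edgeR adjusted p = 0.00582). The MSC against CKD call was lost without CKD replicate 1, CKD replicate 3, MSC replicate 1 or MSC replicate 2, with log2 folds of 1.61, 1.64, 1.60 and 2.05 and edgeR adjusted p of 0.0869, 0.0953, 0.0952 and 0.0692. It was also lost with only the 6 MSC and CKD libraries in the fit (log2 fold 1.94, edgeR adjusted p = 0.0705) and with scaling by library size alone (1.92, edgeR adjusted p = 0.0506). Without CKD replicate 2 the MSC against CKD log2 fold was 2.97 and that of CKD against control 0.33.

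Cdkn1a, the cell cycle inhibitor, was the marker with the smallest p between CKD and control kidneys. Controls measured 4.12, 2.88 and 3.75 CPM in replicates 1, 2 and 3. CKD replicates 1, 2 and 3 measured 15.1, 24.9 and 7.39 CPM, the lowest of them 1.79 times the highest control. MSC replicates 1, 2 and 3 measured 61.5, 31.1 and 25.2 CPM, the lowest of them close to CKD replicate 2. Cdkn1a rose in MSC against control kidneys by a log2 fold of 3.45 ± 0.49 (SE, 10.95-fold, edgeR adjusted p = 0.00383). The CKD against control log2 fold was 2.14 ± 0.47 (4.41-fold, 95% interval of the log2 fold 1.08 to 3.20), with an unadjusted p of 0.00132 that ranked 33 among all genes and an edgeR adjusted p of 0.703. DESeq2 called it (adjusted p = 0.00204), limma-voom did not (adjusted p = 0.832). Without CKD replicate 2 its log2 fold was 1.65. The MSC against CKD fold of 1.31 ± 0.45 did not pass (edgeR adjusted p = 0.0629), and it was called under 5 of 16 alternatives. DESeq2 (adjusted p = 0.0124) and limma-voom (adjusted p = 0.0462) called it. So did edgeR without CKD replicate 2 (adjusted p = 0.0228) or without MSC replicate 3 (adjusted p = 0.0487). It was not called without MSC replicate 1 (log2 fold 0.83, edgeR adjusted p = 0.215). Nor was it without CKD replicate 1 (1.28, edgeR adjusted p = 0.154) or CKD replicate 3 (0.97, edgeR adjusted p = 0.146).

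**Figure D2:**
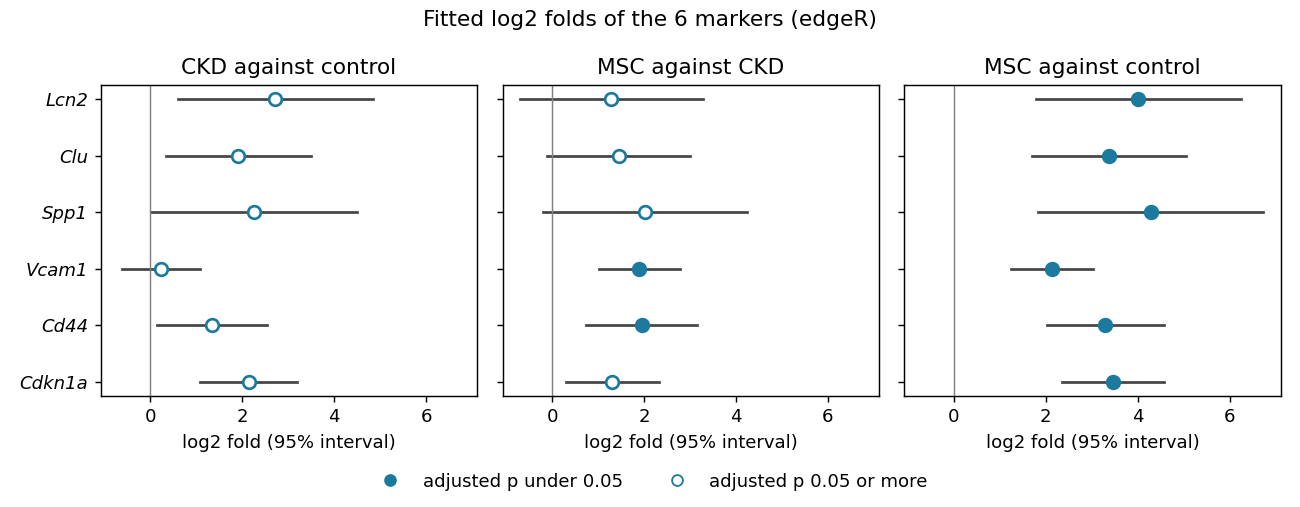
Fitted log2 folds of the 6 markers in each comparison, with 95% intervals as bars and filled points where the edgeR adjusted p is under 0.05. Filled points number 0 in CKD against control, 2 in MSC against CKD (Vcam1, Cd44) and 6 in MSC against control.

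Compared with control kidneys, CKD kidneys showed 0 of 6 markers called, as for all genes (0 of 17584, 0%, edgeR quasi-likelihood test with Benjamini-Hochberg adjustment). Before adjustment 5 of 6 markers, all but Vcam1, had a p under 0.05 in the higher direction, as did 3.87% of all genes (6.55% in either direction). The median log2 fold of the 6 was 2.03, against 0.0045 over all genes. Without CKD replicate 2 that median was 0.40 and the number with such a p was 1 of 6, against 1.82% of genes in the higher direction. The number was 2 without control replicate 1, 3 without control replicate 2 and 1 without control replicate 3. The shares of all genes in the higher direction were 3.6%, 3.51% and 2.57% there. Without CKD replicate 1 or without CKD replicate 3 the number was 5, against 4.46% and 5.44% of genes. In Clu, Cd44 and Cdkn1a the CKD values lay above the controls with no overlap, a pattern seen in 5.96% of all genes. Limma-voom called 0 markers and 0% of all genes. DESeq2 called 1 marker, Cdkn1a, and 0.404% of all genes (0.245% higher).

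MSC against CKD kidneys gave 2 of 6 markers called higher, Vcam1 and Cd44, and 0 lower, at a background of 11.4% of genes called higher and 22.8% called in either direction. The median log2 fold of the 6 was 1.67, against 0.0039 over all genes. Vcam1, Cd44 and Cdkn1a had MSC values above all CKD values, as did 22.1% of all genes. Lcn2, Clu and Spp1 overlapped because CKD replicate 2 lay above the lowest MSC library, by 1.37, 1.27 and 1.11 times. Without CKD replicate 2 the number called was 6 of 6 (all genes 25.9% called, 13.7% higher), with log2 folds of 3.51 for Lcn2, 2.88 for Clu, 4.54 for Spp1, 2.19 for Vcam1, 2.97 for Cd44 and 1.80 for Cdkn1a. As that library was the highest of its group for every marker, the rise in these folds was fixed in advance. The number called was 1 without CKD replicate 1, CKD replicate 3, MSC replicate 1 or MSC replicate 2, where 4.55%, 4.54%, 5.26% and 4.21% of all genes were called higher. It was 3 without MSC replicate 3, where 10.3% were.

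**Figure D3:**
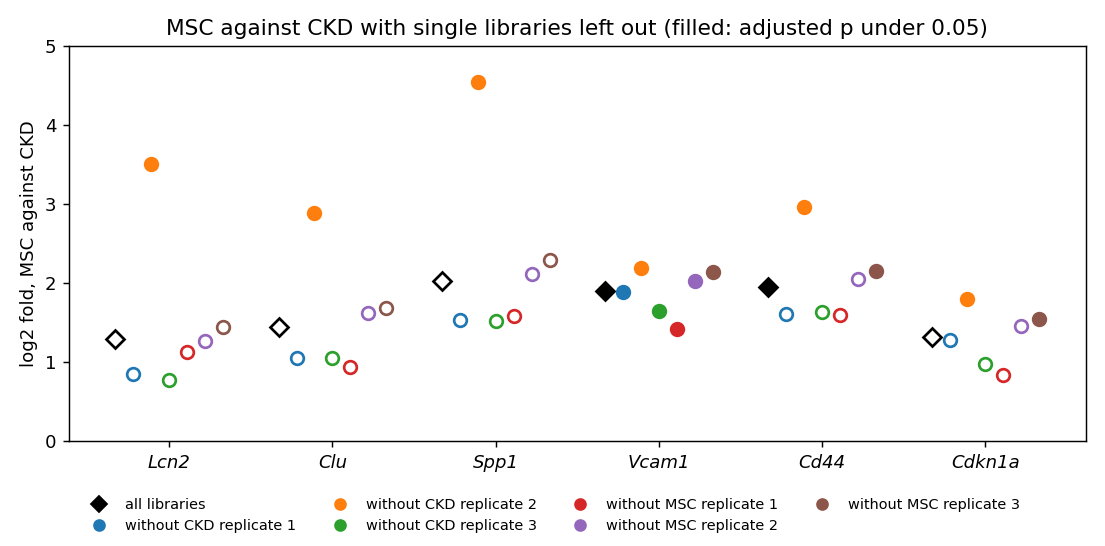
Log2 folds of MSC against CKD with all libraries (diamonds) and with each CKD or MSC library left out in turn (circles, colored by library), filled where the edgeR adjusted p is under 0.05. Leaving out CKD replicate 2, the highest CKD library for every marker, raises each fold by construction, to 4.54 for Spp1. Vcam1 is filled throughout.

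MSC against control kidneys gave 6 of 6 markers called higher, where 16.9% of all genes were called higher and 32.3% in either direction. Log2 folds ran from 2.13 for Vcam1 to 4.28 for Spp1, with a median of 3.41 against -0.0097 over all genes. MSC values lay above all control values in 6 of 6 markers and in 27.2% of all genes. The number called was 4 without control replicate 1 and 4 without control replicate 3, where Lcn2 and Spp1 were lost and 11.7% and 9.7% of all genes were called higher. This comparison shares its MSC libraries with MSC against CKD and its controls with CKD against control, so the 3 sets of folds are not independent.

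The order of group means was control, CKD, MSC for 6 of 6 markers and for 26.9% of all tested genes. The CKD mean described few of its libraries. The SD of the CKD values exceeded their mean for Lcn2 (31.8 ± 43.4 CPM), Clu (464 ± 506) and Spp1 (2508 ± 3589), and was 17.4 ± 6.51 for Vcam1, 29.2 ± 25.6 for Cd44 and 15.8 ± 8.78 for Cdkn1a (SD, n = 3). CKD replicate 2 was the highest CKD library for 6 of 6 markers and for 37.6% of all genes. It exceeded both other CKD libraries more than 4 times for Lcn2, Clu and Spp1, as it did for 1.97% of genes. Against the mean of the other two it stood 15.2 times higher for Spp1, 12.0 for Lcn2, 6.11 for Clu, 4.07 for Cd44, 2.22 for Cdkn1a and 1.70 for Vcam1. The labels do not set this library apart. The cause, and whether its group label is right, was not tested, so each CKD mean and fold holds only as far as that label does.

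CKD replicates 1 and 3 were both above all controls for 3 of 6 markers, Clu, Cd44 and Cdkn1a, and for 9.23% of all genes. Their mean stood at 3.13 times the control mean for Cdkn1a, 1.42 for Lcn2, 1.40 for Clu, 1.25 for Cd44, 0.955 for Vcam1 and 0.833 for Spp1. On a scale from the control mean (0) to the MSC mean (1) of log2 CPM, CKD replicate 2 lay at 1.02 for Lcn2, 0.953 for Clu, 0.880 for Spp1, 0.837 for Cdkn1a, 0.728 for Cd44 and 0.355 for Vcam1. CKD replicates 1 and 3 lay at 0.621 and 0.314 for Cdkn1a, and between -0.198 and 0.245 for the other markers. Cdkn1a was thus the marker in which these libraries lay farthest from the controls, and Vcam1 the one in which CKD replicate 2 lay nearest to them.

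**Figure D4:**
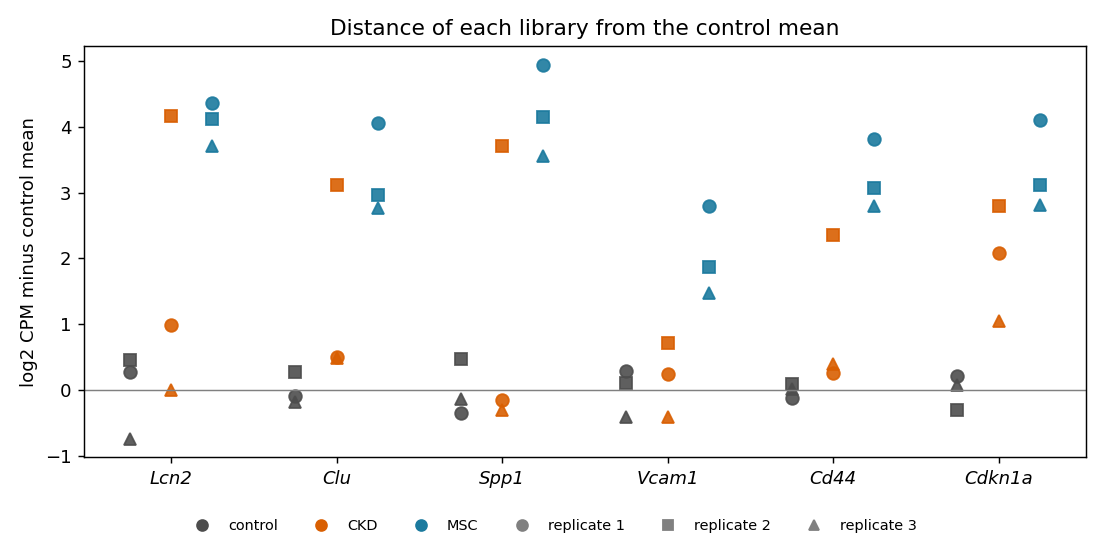
Log2 CPM of each library minus the control mean of the same gene, colored by group, with replicates as symbols. CKD replicate 2 (orange square) lies 4.16 above the control mean for Lcn2 and 0.73 for Vcam1, while CKD replicates 1 and 3 lie at 2.08 and 1.05 for Cdkn1a.

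With CKD replicate 2 counted, the markers differed less between libraries within the MSC group than within the CKD group, except for Vcam1. MSC replicate 1 was the highest MSC library for 6 of 6 markers and for 38.4% of all genes. The highest MSC value was 1.57 times the lowest for Lcn2, 2.02 for Cd44, 2.44 for Cdkn1a, 2.46 for Clu, 2.51 for Vcam1 and 2.60 for Spp1. In the CKD group the same ratio was 18.0 for Lcn2, 16.1 for Spp1, 6.17 for Clu, 4.26 for Cd44, 3.37 for Cdkn1a and 2.19 for Vcam1. CKD replicate 2 was the highest CKD value in each of these ratios. In ratio, CKD replicates 1 and 3 lay closer together than the highest and lowest MSC libraries for all but Lcn2 (9.08 and 4.55 CPM). They measured 173.3 and 169.8 CPM for Clu, 460.4 and 412.8 for Spp1 and 13.8 and 15.1 for Cd44. For Vcam1 they measured 17.3 and 10.9 CPM, and for Cdkn1a 15.1 and 7.39. Group means in MSC kidneys were 77.7 ± 17.0 CPM for Lcn2, 1266 ± 663 for Clu, 10198 ± 4927 for Spp1, 64.6 ± 32.1 for Vcam1, 113.2 ± 43.3 for Cd44 and 39.3 ± 19.5 for Cdkn1a (SD, n = 3).

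Likeness between genes was measured as the root mean square difference of log2 CPM, each gene centred on its own mean over the 9 libraries. Among the markers, Cd44 and Clu were the most alike pair at 0.27, followed by Lcn2 and Spp1 at 0.52. Spp1 and Vcam1 were the least alike at 1.27, and CKD replicate 2 stood near the MSC kidneys in Spp1 and near the controls in Vcam1. Among 13457 other genes with an average log2 CPM of at least 1, ENSRNOG00000002403 came closest to Cd44, at 0.097, with group means of 6.73, 17.5 and 64.8 CPM in control, CKD and MSC kidneys. ENSRNOG00000015078 came closest to Vcam1, at 0.14, with 21.5, 25.4 and 84.3 CPM. For Lcn2, Spp1 and Cdkn1a the closest gene lay at 0.36, 0.36 and 0.40. These values describe patterns that all genes measured in these 9 libraries share in part, and carry no test.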

How the data were processed

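Polyadenylated RNA of rat kidney was sequenced in 9 libraries after TRIzol extraction and strand-specific library preparation, per the labels' protocols. The authors deposited raw counts for 22637 Ensembl identifiers in 9 columns, each matched to 1 sample by its description. Per the submitters' processing notes, cutadapt, HISAT2, StringTie and build Rnor_6.0 were used. No source used here gives versions, annotation release or the strand setting of the counting, so reads of a gene and an antisense partner cannot be told apart. Libraries of a group differed far beyond counting noise (chi-square per gene of 62.7 or more), so none was treated as a duplicate. At 47633344 counts or more per library, counting error is small for these genes.

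Counts were tested with edgeR 4.0.16 in R 4.3.3 (filterByExpr, TMM, robust quasi-likelihood F test, all 9 libraries, group as the only term, two-sided), with Benjamini-Hochberg adjustment over 17584 genes. SEs were derived from the F statistic. Log2 CPM values carry a prior count of 2. Simulated counts with known changes served to check the fitted folds. No simulated library was set apart as CKD replicate 2 was, so the check does not cover the effect of such a library. Alternatives were edgeR with other scaling, filters, only 2 groups, a replicate block or single libraries left out, DESeq2 1.42.0 and limma-voom 3.58.1. A limma-voom fit with sample weights was added after the data were seen. The list of markers sets no threshold on values, but it, the other lists and the motifs were chosen with earlier results of these data known. The text names the 6 markers and, since identifiers lacked symbols, at most 2 identifiers of the most alike genes. The planned lists of other injury, repair and cell type genes were not used here for the same reason.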

Additional observations from a re-analysis of the deposited data

How the results depend on the processing

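All 6 markers kept their direction and their call in MSC against control under every alternative, except Lcn2 and Spp1 without control replicate 1 or 3. In MSC against control the number of markers called ran from 4 to 6 without single libraries. Of all genes, 9.56% to 15.9% were called higher in these fits. In MSC against CKD the number ran from 1 to 6 without single libraries (6 without CKD replicate 2), against 4.21% to 13.7% of genes. It was 1 with library size only and 1 with only the 2 groups compared, where 8.62% and 8.8% of all genes were called higher. The added limma-voom fit with sample weights called 6 markers, and 20.6% of all genes higher (39.1% in either direction). It gave CKD replicate 2 the lowest weight of the 9 libraries, 0.538, and MSC replicate 2 the highest, 2.98. That fit thus plays down the same library and is no separate support for 6 of 6. In CKD against control DESeq2 called 1 marker and 71 genes (0.404% of all genes), against 0 and 0 by edgeR. The log2 fold of Spp1 in CKD against control ran from -0.26 (without CKD replicate 2) to 2.76 without single libraries, and that of Vcam1 from -0.067 (without CKD replicate 2) to 0.48, neither ever called. Over all genes, leaving out single libraries gave 0 to 2 calls for CKD against control, 1499 to 4652 for MSC against CKD (4010 with all libraries) and 3077 to 5525 for MSC against control (5677 with all), and the fit with sample weights called 6877 in MSC against CKD. The cause of the differences between tools was not tested, and fits without a library rest on fewer samples. The replicate numbers do not pair the libraries by the labels. Deviations from group means were correlated above 0.1 in 3 of 9 same-numbered pairs, with r from -0.10 to 0.27. For 6 of 9 libraries the best match in another group had their own number. Whether unpaired libraries would give as many was not tested. A fit with the replicate block called 0, 2 and 6 markers and 0, 4493 and 6033 genes in CKD against control, MSC against CKD and MSC against control. The shares of all genes called higher were 0%, 13.2% and 17.9% in the same order. With 3 libraries a group and 1 CKD library far from the others, the size of the CKD difference is poorly fixed. Depth limits none of the 6 markers.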
